A study of Mus musculus with 6 samples.

Results

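The interferon-stimulated antiviral genes are 48 mouse genes, picked by symbol, that cells switch on under interferon. Some of their products sense, cut, tag or trap viral material, and others regulate the response or have other roles. One of the 48 genes, Ifnb1, encodes the ligand itself. A gene counted as measured when the array held a probe set annotated with its symbol alone, and the brightest such probe set stood for it. Of the 48 genes, 43 were measured in this way, out of 22180 genes on the array. Of these 43, 33 had a mean log2 level of 6.15 or more, the median over all 41345 probe sets, and were tested among 12212 genes. The other 10 lay below that level and are described apart. Of the 5 genes left, 4 (Oas1a, Gbp2, Ifi47 and Dtx3l) shared a probe set with another gene and 1 (Ifi44) was not analysed here. Just inside the level filter lay Isg15 at 6.18, Ifit2 at 6.19 and Sp100 at 6.33, and just outside it Gbp3 at 5.58, Ifi204 at 5.31 and Ifih1 at 5.18.

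The cells were BV2, an immortalised mouse microglial line labelled as wild type, so all values come from 1 line. All 6 samples received telmisartan, which blocks the type 1 angiotensin receptor and partly activates the nuclear receptor PPARG, for 2 h, followed by 1 h of lipopolysaccharide (LPS), the bacterial ligand of TLR4. In 3 of them the irreversible PPARG antagonist GW9662 was given as well, and the other 3 had no antagonist. Doses are not given in the labels. No samples lacking telmisartan or LPS were analysed here, so no value below measures induction by LPS or an effect of telmisartan. RNA of each sample was hybridised to 1 Affymetrix whole-transcript array, and every level below is a deposited log2 value. The labels call the samples independent but name no separate cultures, and the p-values cover no spread beyond that of these 6 arrays, some of which may be technical.

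Over the genes tested the arrays correlated at 0.990 to 0.996. On the first principal component, replicate 3 of telmisartan and LPS scored 14.58 and replicate 2 with GW9662 scored 7.55, against -8.15 to -0.98 for the other 4, so counts are also given with both left out. Of 14 microglia and macrophage markers, 11 were tested, among them the receptor gene Csf1r at 11.15 ± 0.05 (SD, n = 3) without GW9662, and none of the 11 passed the test. Their median difference with GW9662 minus without was -0.04, and the macrophage marker Aif1 differed by -0.20 ± 0.08 with no overlap between groups, whose part in the results below was not tested. P2ry12 and Tmem119, which mark resting microglia in tissue, lay below the level filter. Among markers of astrocytes, neurons, oligodendrocytes, lymphocytes with plasmacytoid dendritic cells, and fibroblasts, 2 or 3 of 6 or 7 genes per type were tested and 0 passed.

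In macrophages and microglia, LPS bound to TLR4 signals through the adaptor TRIF to the kinases TBK1 and IKKE, which activate IRF3, and IRF3 with NF-kB switches on Ifnb1. Secreted interferon beta binds its receptor on the same or a nearby cell, where the kinases JAK1 and TYK2 activate transcription factors that, with IRF9, bind interferon-stimulated response elements (ISREs) in front of antiviral genes. Some of these genes, such as Ifit1 and Isg15, can also be switched on by IRF3 directly. Interferon gamma acts through another element, GAS.

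The RefSeq promoter table (GRCm38.p6) held windows of 300 bases, from 250 before to 50 after an annotated start, for 38 of the 48 genes. The ISRE core was searched as GAAA, any 2 bases and GAAA again, and for the other strand as TTTC, any 2 bases and TTTC, with overlapping matches counted. It was found in 21 of 46 windows of these genes (45.7%), belonging to 20 genes, against 1131 of all 32851 windows (3.44%). The GAS motif TTCNNNGAA, which reads the same on both strands, was found in 9 of the 46 windows (19.6%) against 8.30% of all windows. A match is a run of letters, not measured binding. Windows are shown for Rsad2, Oasl2 and Eif2ak2, the genes with the smallest p in the comparison that follows, and for Isg15 and Ifit1, which hold more than 1 match. Capitals mark the ISRE core on either strand, and each window reads 5′ to 3′ towards the gene.
Rsad2, chr12:26456403-26456702, minus strand: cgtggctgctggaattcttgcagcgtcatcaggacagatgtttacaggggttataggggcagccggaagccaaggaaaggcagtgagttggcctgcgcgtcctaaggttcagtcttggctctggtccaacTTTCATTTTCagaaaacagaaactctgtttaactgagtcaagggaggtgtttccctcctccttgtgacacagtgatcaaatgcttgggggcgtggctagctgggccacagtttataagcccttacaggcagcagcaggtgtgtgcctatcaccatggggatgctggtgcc
Oasl2, chr5:114896684-114896983, plus strand: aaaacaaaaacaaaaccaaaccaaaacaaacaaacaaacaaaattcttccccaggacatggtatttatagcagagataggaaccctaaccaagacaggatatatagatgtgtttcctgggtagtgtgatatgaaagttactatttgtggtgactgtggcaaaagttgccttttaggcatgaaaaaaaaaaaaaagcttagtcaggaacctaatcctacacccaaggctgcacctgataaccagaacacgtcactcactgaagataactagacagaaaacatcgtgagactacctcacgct
Eif2ak2, chr17:78882523-78882822, minus strand: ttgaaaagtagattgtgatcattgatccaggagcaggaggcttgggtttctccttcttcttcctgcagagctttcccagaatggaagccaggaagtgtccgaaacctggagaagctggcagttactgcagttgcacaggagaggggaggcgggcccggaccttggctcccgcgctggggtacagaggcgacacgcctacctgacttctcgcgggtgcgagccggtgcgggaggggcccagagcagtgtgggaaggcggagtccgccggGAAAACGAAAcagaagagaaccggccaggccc
Isg15, chr4:156200769-156201068, minus strand: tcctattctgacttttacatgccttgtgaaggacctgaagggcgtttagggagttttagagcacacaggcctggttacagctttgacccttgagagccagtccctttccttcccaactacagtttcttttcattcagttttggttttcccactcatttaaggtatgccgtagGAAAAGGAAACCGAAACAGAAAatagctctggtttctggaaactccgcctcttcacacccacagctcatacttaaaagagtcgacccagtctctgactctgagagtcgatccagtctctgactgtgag
Ifit1, chr19:34640639-34640938, plus strand: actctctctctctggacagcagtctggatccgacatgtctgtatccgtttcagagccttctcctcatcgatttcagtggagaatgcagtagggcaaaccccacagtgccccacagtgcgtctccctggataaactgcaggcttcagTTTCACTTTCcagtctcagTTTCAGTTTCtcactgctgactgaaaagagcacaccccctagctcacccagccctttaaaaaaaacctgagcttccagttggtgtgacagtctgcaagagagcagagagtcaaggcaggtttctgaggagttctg
In Rsad2 the match began 120 bases before the annotated start, in Isg15 3 overlapping matches began between 78 and 66 bases before it, and in Ifit1 2 separate matches began 104 and 85 bases before it. In Eif2ak2 it began 18 bases after the first transcribed base, and the Oasl2 window held none of these letters.

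The comparison addresses whether antiviral transcripts differ in level when the PPARG antagonist is added to telmisartan and LPS. Most tested members were lower with GW9662 by small amounts, and none passed the test. In limma, 0 of 33 had a Benjamini-Hochberg adjusted p under 0.05 in either direction, with adjusted p-values from 0.599 to 0.999. Of all genes 0.0409% passed, 0.0164% lower and 0.0246% higher with GW9662. At an unadjusted p under 0.05 there were 5 members (15.2%), all lower, against 4.45% of all genes in either direction and 2.78% lower. The median difference, log2 with GW9662 minus without, was -0.12 over the members and -0.02 over all genes tested. It was negative in 28 of 33 members (84.8%), against 58.8% of all genes. By size, 20 members lay below -0.1 and 1 above 0.1, against 17.7% and 9.14% of all genes. The list was chosen with earlier results of these data known, so these shares describe it and carry no test. With arrays weighted by their agreement with the fit, the share of negative members was 63.6%, against 59.1% of all genes. In bulk RNA, fewer cells with a transcript and less of it per cell cannot be told apart.

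**Figure D1:**
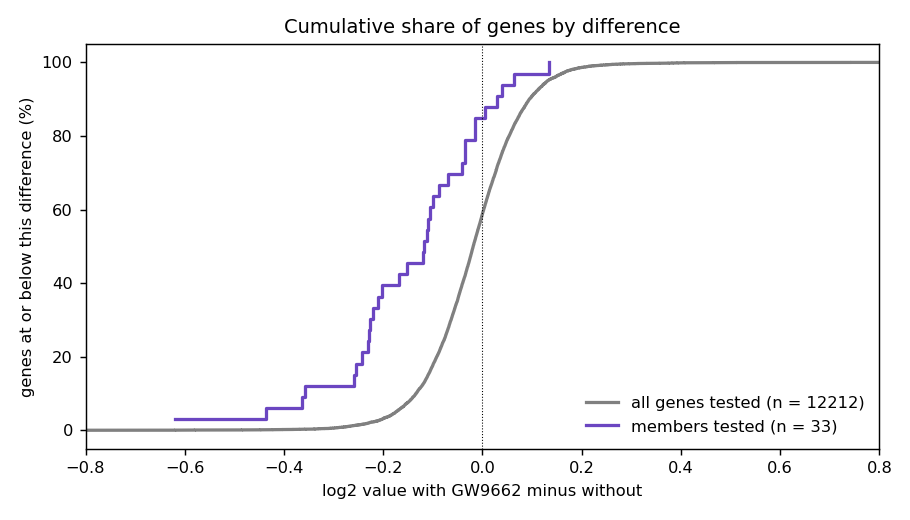
Cumulative share of genes (y axis, percent) against the log2 difference with GW9662 minus without (x axis, shown between -0.8 and 0.8) for the 33 tested members (purple) and all 12212 genes tested (grey). The member curve lies to the left of the other, with 84.8% of members below 0 against 58.8% of all genes.

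In 4 members, Rsad2, Oasl2, Eif2ak2 and Rtp4, all 3 arrays with GW9662 lay below the 3 without (12.1%), against 5.36% of all genes, and in 0 members did they lie above, against 4.01%. In either direction, 9.37% of all genes had groups that did not overlap. The groups overlapped in the other 29 members. Smaller groups separate more easily, and the count of members wholly lower was 12 when replicate 1 of telmisartan and LPS was left out and 7 when its replicate 3 was, beside 8.84% and 12.5% of all genes. It was 15 without replicate 2 with GW9662 and 18 without both arrays that stood apart, beside 16.7% and 24.7% of all genes. The median difference was -0.07 without replicate 2 of telmisartan and LPS, and -0.18 without its replicate 1 or without replicate 2 with GW9662.

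The genes left outside the families and roles below were listed as other antiviral effectors. They included 4 of the 5 members with an unadjusted p under 0.05. All 9 tested genes of this list had a negative difference, with a median of -0.23. With array weights 6 of the 9 were negative, and with median centring 8. Rsad2 encodes viperin, which makes a chain-terminating nucleotide that stops viral RNA synthesis. Its log2 level was 8.58, 8.71 and 8.73 without GW9662 and 8.03, 8.27 and 8.42 with it. The groups did not overlap, and the means were 8.68 ± 0.08 and 8.24 ± 0.20 (SD, n = 3). The difference was -0.44 ± 0.10 (SE), or 1.35-fold lower, with a limma adjusted p of 0.599. Cmpk2, a mitochondrial nucleotide kinase gene next to Rsad2 on chromosome 12, had levels of 7.83 to 8.16 without and 7.68 to 8.08 with GW9662, which overlapped (-0.23 ± 0.13, or -0.36 to -0.16 with each array left out).

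Eif2ak2 encodes PKR, the kinase that halts translation when it binds double-stranded RNA. Its level was 10.05, 10.04 and 10.12 without GW9662 and 9.78, 9.93 and 9.84 with it, with no overlap and SDs of 0.05 and 0.07. The difference was -0.22 ± 0.07 (limma adjusted p = 0.947). Rtp4, an interferon-inducible gene named for a role in receptor transport, stood at 7.54, 8.20 and 7.52 without GW9662 and 6.73, 7.50 and 7.16 with it. Its groups were almost in contact, with 7.52 as the lowest array without and 7.50 as the highest with GW9662, and its SD was 0.38 in each group. The difference of -0.62 ± 0.23 (limma adjusted p = 0.994) was the most negative of the 33, and it was -0.40 without replicate 2 of telmisartan and LPS. Leaving out both arrays that stood apart gave -0.92.

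Slfn2, a Schlafen gene needed for the quiescence of T cells and monocytes in mice, stood at 10.13, 10.24 and 10.35 without GW9662 and 9.84, 10.16 and 9.93 with it. Replicate 2 with GW9662 reached into the range of the other group, and the difference was -0.26 ± 0.10 (limma adjusted p = 0.994). Bst2 encodes tetherin, which holds budding virions to the cell surface. Its level was 11.39, 11.66 and 11.02 without GW9662 and 11.15, 11.04 and 11.19 with it, so the group without the antagonist held both the highest and the lowest array. The difference was -0.23 ± 0.15, and -0.07 without replicate 2 or -0.40 without replicate 3 of telmisartan and LPS. The remaining tested genes of this list were the exonuclease gene Isg20 (-0.01 ± 0.12), Ifi35 (-0.07 ± 0.08) and Xaf1 (-0.09 ± 0.12), and all 3 overlapped between groups. The sign turned in 4 of the 16 alternatives for Isg20, median centring among them, in 3 of 15 for Xaf1 and in 1 of 16 for Ifi35. A second probe set of Ifi35 differed by 0.01.

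**Figure D2:**
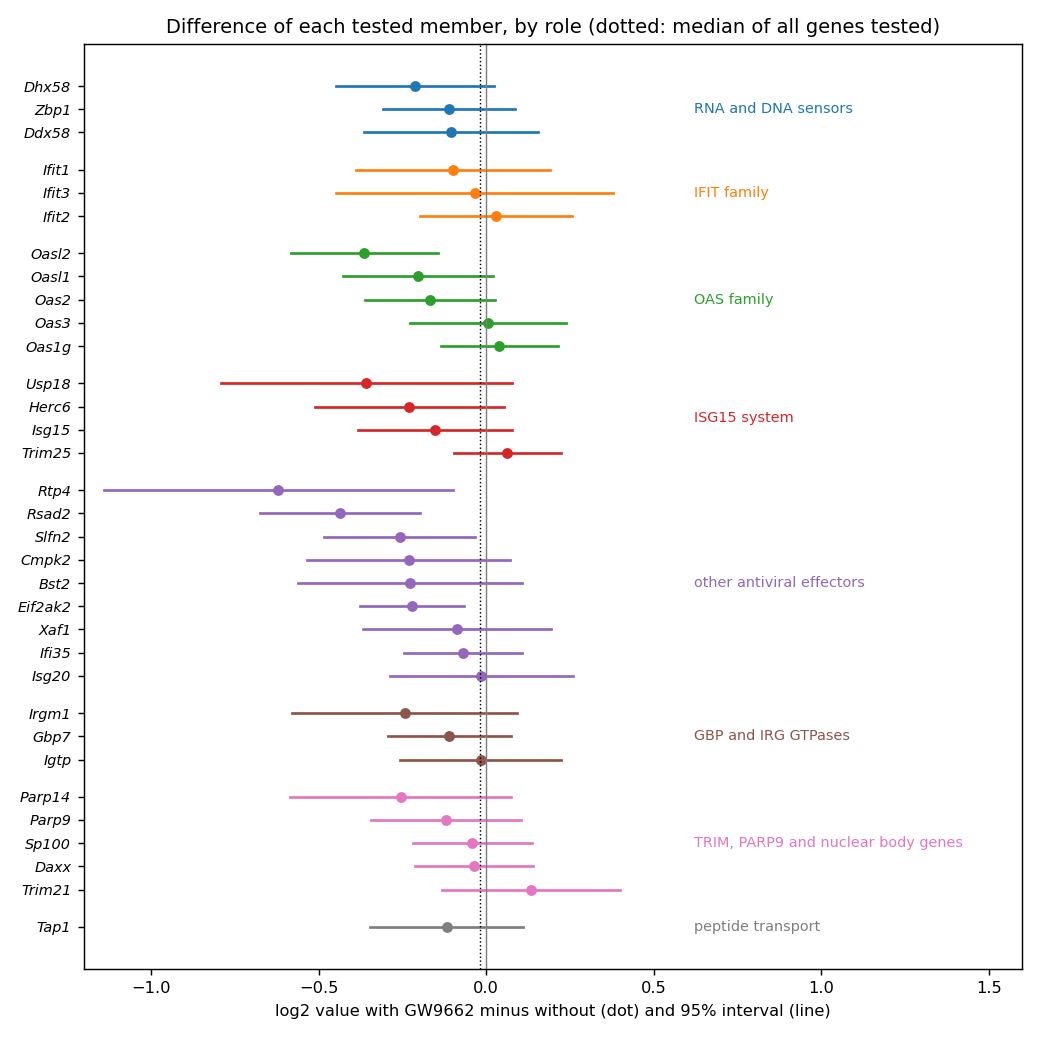
Log2 difference with GW9662 minus without (dots) and its 95% interval from limma (lines) for the 33 tested members, grouped and coloured by role, with a dotted line at the median of all genes tested (-0.02). Of the dots 28 lie below 0, and the intervals of 5 members (Rtp4, Rsad2, Slfn2, Eif2ak2 and Oasl2) lie wholly below it.

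The OAS family makes short oligoadenylates on double-stranded RNA, which activate RNase L. Of 5 tested genes, 3 were negative and 2 positive, with a median of -0.17, and none passed. Oasl2 stood at 7.30, 7.50 and 7.31 without GW9662 and 6.83, 7.10 and 7.09 with it, with no overlap and a difference of -0.36 ± 0.10 (limma adjusted p = 0.748). Its neighbour on chromosome 5, Oasl1, which lacks synthetase activity and in mice restrains translation of Irf7, stood at 10.81, 10.99 and 10.66 without GW9662 and 10.66, 10.70 and 10.50 with it. Replicate 2 with GW9662 lay within the range of the other group, and the difference was -0.20 ± 0.10, or -0.12 without replicate 2 of telmisartan and LPS. Oas2 stood at 7.86, 7.93 and 7.88 without GW9662 and 7.57, 7.87 and 7.72 with it, where replicate 2 of the latter group again made the overlap, and the difference was -0.17 ± 0.08, or -0.09 without replicate 1 with GW9662. Without that array the family's median was -0.09. The synthetase genes Oas3 (0.0058 ± 0.10) and Oas1g (0.04 ± 0.08) lay near 0, and each had the other sign in at least 1 fit with an array left out. A probe set shared by Oas1a and Oas1g differed by -0.09, with levels of 8.31 to 8.91 without and 8.28 to 8.66 with GW9662. Oas1a and Oas1g are near copies of each other, so which copy a probe set of either read is uncertain.

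IFIT proteins bind viral RNA and block its translation. Ifit1 stood at 6.51, 6.78 and 6.74 without GW9662 and 6.84, 6.48 and 6.40 with it, so replicate 1 with the antagonist was the highest of all 6 arrays, and the difference was -0.10 ± 0.13, or -0.23 to -0.01 with each array left out. Ifit2 and its neighbour Ifit3 differed by 0.03 ± 0.10 and -0.03 ± 0.18. The median of the 3 was -0.03, and it ran from -0.11 to 0.10 over the alternatives. Ifit3 had SDs of 0.13 and 0.40, and leaving out 1 array moved its difference from -0.24 to 0.16. The 95% intervals ran from -0.39 to 0.19 for Ifit1, -0.20 to 0.26 for Ifit2 and -0.45 to 0.38 for Ifit3, so a difference as large as that of Oasl2 lies within the first and the third.

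ISG15 is a ubiquitin-like protein that is joined to other proteins during an antiviral response. Isg15 stood at 6.11, 6.43 and 6.22 without GW9662 and 6.09, 6.23 and 5.99 with it, with overlapping groups and a difference of -0.15 ± 0.10, which was -0.06 without replicate 2 of telmisartan and LPS and -0.10 without replicate 3 with GW9662. Usp18, whose product removes ISG15 and blocks signalling at the interferon receptor, stood at 8.42, 9.03 and 8.67 without GW9662 and 7.97, 8.57 and 8.50 with it. Its difference of -0.36 ± 0.19 (limma adjusted p = 0.994) came with SDs of 0.31 and 0.33, and the interval ran from -0.79 to 0.08. It was -0.17 without replicate 1 with GW9662 and -0.20 without replicate 2 of telmisartan and LPS. Herc6, the main ISG15 ligase gene of the mouse, stood at 7.07, 7.08 and 7.48 without GW9662 and 6.84, 7.11 and 7.001 with it. Replicate 3 of telmisartan and LPS was the high array, and the difference of -0.23 ± 0.12 was -0.10 without it. Trim25, whose product is a ubiquitin ligase that acts on RIG-I, stood at 10.47, 10.33 and 10.49 without GW9662 and 10.43, 10.51 and 10.53 with it. It was one of 5 members with a positive difference, 0.06 ± 0.07, and of these 5 only Trim25 kept its sign in all 16 alternatives, at 0.01 without replicate 2 of telmisartan and LPS.

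**Figure D3:**
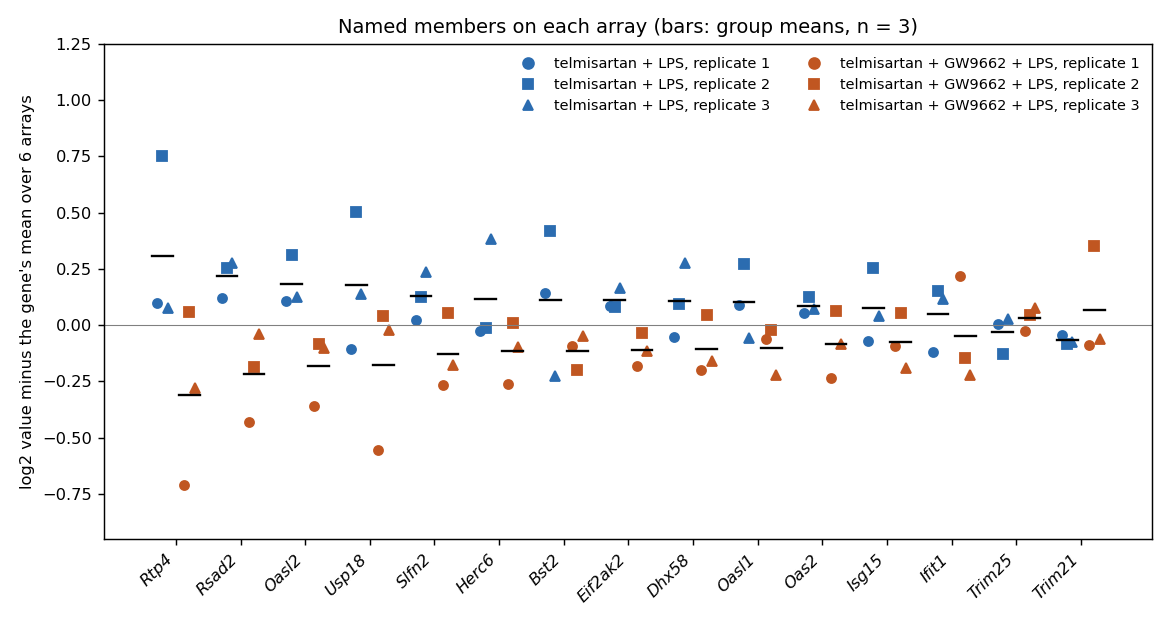
Log2 value minus the gene's own mean over 6 arrays (y axis) on each array for 15 named members (x axis), without GW9662 (blue) and with it (orange), with marker shapes for replicates and bars for the group means (n = 3). The groups are separate in Rtp4, Rsad2, Oasl2 and Eif2ak2 and overlap in the others.

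Sensors of foreign nucleic acid were negative in all 3 tested genes, with a median of -0.11, and none passed. Dhx58 encodes LGP2, which tunes the RNA sensors RIG-I and MDA5. It stood at 7.52, 7.67 and 7.86 without GW9662 and 7.38, 7.62 and 7.42 with it, a difference of -0.21 ± 0.10 with overlap through replicate 2 of the latter group. Ddx58, the gene of RIG-I itself, differed by -0.11 ± 0.11, and Zbp1, a sensor of Z-form nucleic acid that can start cell death, by -0.11 ± 0.09. Dhx58 differed by -0.12 without replicate 3 of telmisartan and LPS. With each array left out, Ddx58 ran from -0.21 to -0.0087 and Zbp1 from -0.19 to -0.03.

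The interferon-inducible GTPases, which act in defence against microbes held in vacuoles, were negative in all 3 tested genes, with a median of -0.11. Irgm1 differed by -0.24 ± 0.15, Gbp7 by -0.11 ± 0.08 and Igtp by -0.02 ± 0.10, and Igtp had the other sign in 2 fits with an array left out. With each array left out in turn, Irgm1 ran from -0.34 to -0.10 and Gbp7 from -0.18 to -0.05. A probe set shared by Gbp2 and Gbp2b and one shared by Ifi47 and Olfr56 lay below the level filter, at means of 5.31 and 4.82, and differed by 0.12 and 0.25.

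Among TRIM, PARP and nuclear body genes 4 of 5 tested were negative, with a median of -0.04. Parp14, an ADP-ribosyltransferase gene, had levels of 8.05 to 8.42 without GW9662 and 7.80 to 8.30 with it (-0.26 ± 0.14, or -0.41 to -0.16 with each array left out). Parp9, the gene of a partner of the ubiquitin ligase DTX3L, differed by -0.12 ± 0.10, or -0.21 to -0.06 with each array left out. In the probe set that Dtx3l and Parp9 share, the 3 arrays with GW9662, at 8.62 to 8.65, all lay below the 3 without, at 8.68 to 8.74, a difference of -0.08. Sp100 and Daxx, genes of nuclear bodies that silence viral genomes, differed by -0.04 ± 0.08 and -0.04 ± 0.08. Each had the other sign in 1 fit with an array left out. Dimmer probe sets of Sp100 alone, below the level filter, differed by 0.21, 0.02 and -0.14, and one shared with Gm7609 by -0.01. Trim21, whose product is a cytosolic antibody receptor, stood at 6.31, 6.26 and 6.27 without GW9662 and 6.26, 6.70 and 6.29 with it. Replicate 2 with GW9662 was the high array, and the positive difference of 0.13 ± 0.12 was -0.0085 without it. Tap1, the gene of a subunit of the peptide transporter for class I molecules, differed by -0.12 ± 0.10, or -0.23 to -0.05 with each array left out, and its groups overlapped.

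Ifnb1, the ligand gene, lay below the level filter on every array. Its level was 4.29, 4.20 and 4.40 without GW9662 and 4.39, 4.36 and 4.32 with it, so the 3 arrays with the antagonist lay within the range of the 3 without. Mx1, whose product is a GTPase that blocks orthomyxoviruses, was also dim, at 4.37, 4.25 and 4.60 without GW9662 and 4.45, 4.30 and 4.44 with it, likewise within the range of the other group. Over all 10 dim members the array values ran from 4.07 to 5.82, and the differences from -0.26 to 0.06 with a median of -0.05. Of the 10, 6 were negative and 4 positive, and of these only the GTPase gene Mx2 was wholly lower with GW9662, at 4.75 to 4.87 against 4.97 to 5.15. Differences at this level were not tested, and the share of all dim genes that were wholly lower was not counted. Among the genes tested, at or above the level filter, 5.36% were wholly lower. A brighter probe set shared by Ifi204, a DNA sensor gene, and Ifi211 lay at 7.34, 7.46 and 7.47 without GW9662 and 6.87, 7.15 and 7.24 with it, with no overlap and a difference of -0.33, beside -0.24 for the dim probe set of Ifi204 alone.

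Arrays of the same group also differed from each other across the members. Relative to each gene's mean over the 6 arrays, the mean log2 level of the 33 members was -0.04, 0.16 and 0.09 on replicates 1 to 3 of telmisartan and LPS and -0.16, 0.01 and -0.06 on replicates 1 to 3 with GW9662. Replicate 1 without the antagonist thus lay below replicate 2 with it, and the groups of array means, 0.07 ± 0.10 and -0.07 ± 0.09 (SD, n = 3), overlapped. Replicate 1 had the lowest and replicate 2 the highest mean in both groups. At each replicate number the array with GW9662 lay below the one without, though the fit reported did not pair samples by number. Over all genes tested the same means ran from -0.02 to 0.03. Within its group, replicate 1 of telmisartan and LPS was the lowest array in 24 of 33 members (72.7%) and replicate 1 with GW9662 in 21 (63.6%), against 25.2% and 36.3% of all genes. Replicate 2 of telmisartan and LPS was the highest of all 6 arrays in 17 members (51.5%, against 18.0% of all genes), and replicate 1 with GW9662 the lowest in 15 (45.5%, against 20.6%). The median residual SD of the tested members was 0.148, beside 0.101 over all genes tested.

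**Figure D4:**
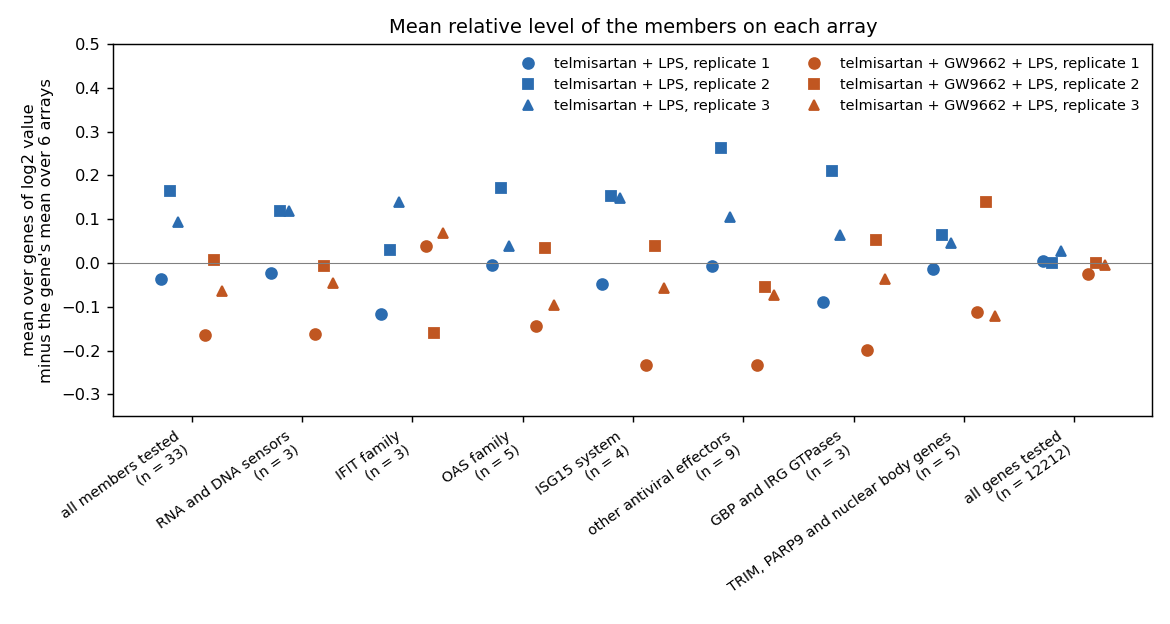
Mean over genes of the log2 value minus the gene's mean over 6 arrays (y axis) on each array, for all 33 tested members, the role groups with more than 1 tested gene and all genes tested (x axis), without GW9662 (blue) and with it (orange), with marker shapes for replicates. Over all members, replicate 1 of telmisartan and LPS at -0.04 lies below replicate 2 with GW9662 at 0.01.

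By role, the array means of the 9 other antiviral effectors were -0.0079, 0.26 and 0.11 without and -0.23, -0.05 and -0.07 with GW9662. This was the role group in which the lowest array without lay above the highest with it. It does not hold all antiviral effectors, since the OAS and IFIT genes were listed apart. In the IFIT group replicate 1 of telmisartan and LPS, at -0.12, lay below replicates 1 and 3 with GW9662, at 0.04 and 0.07. In the sensor, OAS, ISG15, GTPase and TRIM, PARP and nuclear body groups replicate 1 of telmisartan and LPS lay below replicate 2 with the antagonist, as it did over all members. Among the 26 tested members with a promoter window, the 13 whose window held the ISRE core had a median difference of -0.11 and the 13 whose window did not had one of -0.09, with 10 and 11 negative.

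The rest of the interferon pathway was covered by 70 genes in 6 lists. Of these 54 were tested, 41 negative and 13 positive, with a median of -0.06, and 0 passed in limma. The negative share was 75.9%, against 58.8% of all genes, and 5 (9.26%) had an unadjusted p under 0.05, against 4.45%. The largest differences of the 54 were in the interferon-inducible chemokines and Socs3. Cxcl10, which attracts T cells, stood at 9.74, 9.98 and 9.76 without GW9662 and 9.02, 9.49 and 9.16 with it. The groups did not overlap, and the difference was -0.60 ± 0.12 (limma adjusted p = 0.415). Ccl5, another T cell attractant, stood at 8.71, 8.84 and 8.73 without GW9662 and 8.24, 8.58 and 8.43 with it, also without overlap, a difference of -0.34 ± 0.09 (limma adjusted p = 0.823). Replicate 1 with GW9662 was the lowest array for both, as for Rsad2, Oasl2, Eif2ak2, Rtp4 and Slfn2. Cxcl9, Cxcl11 and Ccl12 lay below the level filter.

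Receptor and signal genes differed less in median. Of 9 tested 7 were negative, with a median of -0.05. Ifnar1, a chain of the type I interferon receptor, stood at 10.68, 10.63 and 10.65 without GW9662 and 10.56, 10.54 and 10.61 with it, with no overlap and a difference of -0.08 ± 0.06. Ifngr1, a chain of the interferon gamma receptor, differed by -0.09 ± 0.06, also without overlap. With repeated quantile normalization these were -0.05 and -0.06. Irf9, whose product is part of the complex on the ISRE, had overlapping levels of 8.78 to 9.18 without and 8.75 to 8.79 with GW9662, and differed by -0.18 ± 0.10, or -0.07 without replicate 2 of telmisartan and LPS. Of 6 interferon regulatory factor genes 4 were negative, and Irf1 was wholly lower, at 7.53 to 7.58 without and 7.25 to 7.44 with GW9662 (-0.22 ± 0.07, limma adjusted p = 0.949). Irf2 differed by -0.11 ± 0.07, also without overlap, and Irf7, which amplifies interferon production, by -0.13 ± 0.09 with overlap, or -0.05 without that same array and -0.06 without replicate 1 with GW9662. Irf5 was not analysed here.

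On the route from TLR4, RIG-I and STING to Ifnb1, 7 of 10 tested genes were negative, with a median of -0.07 and overlapping groups in all 10. Ikbke, the gene of the kinase IKKE, differed by -0.17 ± 0.09 and Cgas, a DNA sensor gene, by -0.16 ± 0.10. Without replicate 3 of telmisartan and LPS these were -0.08 and -0.09, and Cgas was -0.07 without replicate 1 and -0.24 without replicate 2 with GW9662. Among 7 inhibitors of interferon signalling 5 were negative. Socs3, whose product blocks cytokine receptors of the gp130 family, stood at 8.69, 8.81 and 8.65 without GW9662 and 8.31, 8.26 and 8.37 with it, with no overlap and a difference of -0.40 ± 0.07 (limma adjusted p = 0.207). The difference was -0.23 when the probe sets of Socs3 were averaged in place of taking the brightest. Pias1, a SUMO ligase gene, differed by -0.09 ± 0.06. In a list of 30 other interferon-stimulated genes 20 were tested and 16 negative, with a median of -0.05. The 2 named from it were Tap2, the partner of Tap1, at -0.18 ± 0.08, and Cd274, the gene of the checkpoint ligand PD-L1, at -0.14 ± 0.08, or -0.08 without replicate 2 of telmisartan and LPS.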

How the data were processed

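The authors deposited log2 values per probe set for 6 arrays, made with RMA (background correction, quantile normalization over the arrays and median polish) in the Affymetrix Power Tools engine 1.4.1.46, per the file headers. The headers name the MoGene 2.0 array, whereas the labels' labelling protocol names an earlier version. Labelling used 300 ng of total RNA, per the labels. Both deposited tables hold the same values to within 0.005, and the one with 5 decimals was used. No array was dropped or imputed. Genes with a mean log2 level of at least 6.15 were fitted by group in R 4.3.3, using lmFit and eBayes of limma 3.58.1, with Benjamini-Hochberg adjustment over 12212 genes and a threshold of 0.05. On simulated data for this comparison, 43 of 50 genes changed by 0.5 on the log2 scale were recovered and 50 of 50 at each larger size, with 11 false calls. The simulated noise was normal and independent between arrays and genes, and 200 genes were changed. The noise variance of each gene was the one eBayes had already drawn towards a common value, not the gene's own residual variance. The members' median residual SD in the real data was 0.148, beside 0.101 over all genes tested. These rates therefore do not give the share of changed members that the test would find. The number of arrays limits the precision. Values on every array are given for the 10 tested members with the smallest unadjusted p, the 4 with the highest mean level, the 2 with the most positive difference, and Ifnb1, Ifit1, Isg15, Usp18 and Mx1. Members and lists were chosen with earlier results of these data known. Over all genes tested, deviations of arrays with the same replicate number correlated at 0.29, -0.45 and -0.12, so the fit reported did not pair samples by number. The members' array means had the same order of replicates in both groups. Alternatives covered the source table, level filter, probe sets per gene, scaling, array weights, variance prior, replicate block and arrays left out.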

Additional observations from a re-analysis of the deposited data

How the results depend on the processing

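No member passed the limma test in any of the 16 alternatives, where the lowest adjusted p was 0.116, for Eif2ak2 with array weights. The members' median difference ran from -0.20, with the level filter at 7, to -0.07, and was -0.18 to -0.07 with each array left out. The number of negative members was 26 to 30 with each array left out and 21 of 33 with array weights, which gave replicate 1 of telmisartan and LPS a weight of 5.74 against 0.37 to 1.37 for the others. Across the alternatives 20 of 33 members kept their sign, 19 negative and 1 positive (Trim25). The members wholly lower numbered 4 to 15 with each array left out and 18 without both arrays that stood apart. The 15 and the 18 stood beside 16.7% and 24.7% of all genes, against 5.36% of all genes in the fit reported. Over all genes, 3 were called higher and 2 lower in the fit reported. The counts were 0 and 1 with no level filter, 27 and 22 with array weights, 6 and 6 with trend and robust settings, and 0 and 0 without both of the arrays standing apart and with the replicate block. Genes called lower numbered 5 with the level filter at 7, 6 with median centring and 6 with repeated quantile normalization. With each array left out, 0 to 0 genes were called higher and 0 to 2 lower. The replicate block left the members' median at -0.12 and gave Rsad2 an adjusted p of 0.649, and it changed no member's call. Ifit1 differed by 0.076 with array weights. Trim21 differed by -0.012 without both arrays that stood apart, and its difference was -0.0085 to 0.21 with each array left out. Cxcl10 and Socs3 passed with array weights alone (adjusted p = 0.0363 and 0.0267). The cause of these differences was not tested. Centring and repeated quantile normalization moved the median of all genes by 0.01 and 0.02.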
